A study of Mus musculus with 8 samples.

Results

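B-1a cells of the spleen that had lost surface IgM (IgMneg) were compared with B-1a cells that kept it (IgMhi), whatever the genotype of the IgMhi cells. The comparison took 8 of the 8 RNA-seq libraries of the series and all 10783 genes of the deposited table, and its members were the genes for which the 3 IgMneg values lay all above or all below the 5 IgMhi values. The IgMneg libraries were labelled CKO 1, 2 and 3, from CTLA-4 B cell conditional knockout mice (CKO, Ctla4fl/fl with 1 copy of a B-cell Cre). The CKO IgMhi libraries were labelled CKO 2 and 3. The control IgMhi libraries were labelled control 1, 2 and 3, from mice wild type at Ctla4 with the same Cre. The labels do not state whether equal CKO numbers name the same mouse. All mice were Balb/c, and the labels mention a treatment of the mice without naming it. The Cre acts across the B lineage, so the deletion was not limited to B-1a cells. Live B cells without CD3 or myeloid markers were sorted as IgMhi IgDlo/neg or IgMneg IgDneg, and then as CD5+ CD43+. No IgMneg library came from a control mouse, so part of any difference from control IgMhi cells cannot be told apart from genotype. The CKO and control IgMhi groups were given equal weight.

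B-1a cells arise mostly in fetal and neonatal life, renew themselves in the adult and secrete natural IgM that often recognizes self antigens. A B cell can lose surface IgM when its receptor is taken up and not replaced, or when its heavy chain locus recombines and the cell switches to another class. CTLA-4, an inhibitory receptor best known on T cells, binds CD80 and CD86. Heavy chain constant genes were not analysed here.

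Reads in genes were 5279044 to 9639495 in IgMneg, 6626127 and 7952315 in CKO IgMhi and 1404660 to 10289686 in control IgMhi libraries. The median gene had 147 to 264 reads in IgMneg libraries, 195 and 236 in CKO IgMhi, and 67, 31 and 332 in control libraries 1, 2 and 3, so control library 2 set the precision for low genes. Xist was high in IgMneg libraries 1 and 2 and CKO IgMhi library 2, Y-linked genes were high in IgMneg library 3, CKO IgMhi library 3 and control libraries 2 and 3, and control library 1 had both, at 2001 normalized counts of Xist and a Y-linked sum of 718. Both sexes, or their RNA, are thus present on each side. Whether control library 1 holds RNA of more than 1 mouse is not stated, and results with and without it are given below. Values are normalized counts, that is reads divided by 1 factor per library, and are listed in the order of libraries 1, 2 and 3 for IgMneg, 2 and 3 for CKO IgMhi, and 1, 2 and 3 for control IgMhi. Log2 fold changes are IgMneg over IgMhi. Because each library is RNA of many cells, fewer cells of a type and less RNA per cell cannot be told apart.

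Of 10627 genes tested with limma, 251 were higher in IgMneg cells at an adjusted p under 0.05 (2.36% of the genes tested) and 521 were lower (4.9%), while 9855 did not pass. All 3 IgMneg values lay above all 5 IgMhi values for 756 genes (7.11%) and below them for 740 genes (6.96%). Genes that were both called and free of overlap numbered 220 higher and 373 lower, with median log2 fold changes of 0.559 and -0.718. Of these, 20 rose and 66 fell at least 2-fold. Another 536 genes lay above and 367 below without passing the test. The gap between the nearest IgMneg and IgMhi values was at least 0.1 on the log2 scale for 364 of the 756 and 445 of the 740, and at least 1 for 5 and 4. The number called fell to 43 higher and 148 lower without CKO IgMhi library 3, 52 and 249 without IgMneg library 3, 76 and 282 without CKO IgMhi library 2, 88 and 325 without IgMneg library 2, and 109 and 296 without control library 3. It was 182 and 427 without control library 1, and 90 and 267 with both shallow control libraries, 1 and 2, left out. A fit with no trend of variance on expression called 2 and 3 genes, and Cd3g, Gcsam and Zmiz1 were the named genes it called. Scaling by total reads called 24 higher and 142 lower, or 14.5% higher and 85.5% lower of those called, against 32.5% and 67.5% with the deposited scaling. If equal CKO numbers are read as the same mouse, a fit with the mouse as a random block called 510 genes higher and 812 lower. A fit with the library number as a fixed block called 551 higher and 810 lower. Control and CKO libraries of different mice share these numbers, so the fixed block is not a pairing within mice. Among the genes called and free of overlap, 21 of 220 higher and 109 of 373 lower passed in all 8 fits that left out 1 library.

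Promoter windows of 3 genes that changed are shown for orientation. Dntt had the largest rise and Runx3 the largest fall among genes called without overlap above a mean cut. The cut was 50 or more normalized counts in the higher of the IgMneg and IgMhi groups. Cr2, the complement receptor CD21, is a surface protein by which mature B cell subsets are told apart. Each window holds the 250 bases before the RefSeq start on GRCm38.p6, at chr19:41029025-41029274 (plus strand), chr4:135120395-135120644 (plus strand, the distal of the starts listed for Runx3) and chr1:195176720-195176969 (minus strand). Capitals mark matches, on either strand, to TGTGGT (RUNX), CAGCTG (E-box), GGGCGG (SP1) or GGAAGT (ETS), and Dntt has none of these.
Dntt: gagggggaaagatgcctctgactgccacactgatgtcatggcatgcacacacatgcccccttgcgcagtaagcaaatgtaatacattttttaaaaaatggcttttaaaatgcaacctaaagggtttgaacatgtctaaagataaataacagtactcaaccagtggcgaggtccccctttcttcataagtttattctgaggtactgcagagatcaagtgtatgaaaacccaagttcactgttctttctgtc
Runx3: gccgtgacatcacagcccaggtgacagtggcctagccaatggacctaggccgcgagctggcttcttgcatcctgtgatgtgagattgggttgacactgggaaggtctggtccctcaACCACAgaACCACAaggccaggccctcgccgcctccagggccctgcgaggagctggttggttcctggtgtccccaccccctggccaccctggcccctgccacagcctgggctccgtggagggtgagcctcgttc
Cr2: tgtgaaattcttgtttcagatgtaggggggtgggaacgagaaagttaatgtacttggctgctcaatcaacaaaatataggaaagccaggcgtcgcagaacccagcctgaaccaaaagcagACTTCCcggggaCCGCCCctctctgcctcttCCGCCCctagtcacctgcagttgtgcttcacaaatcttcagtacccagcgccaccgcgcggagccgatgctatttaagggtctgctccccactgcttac
The distal Runx3 window holds 2 RUNX matches on the minus strand, and the Cr2 window 1 ETS and 2 SP1 matches. Another Runx3 window, at chr4:135152295-135152544 and not printed, holds 3 SP1 matches and no RUNX match. A window was found for 172 of the 220 higher and 295 of the 373 lower genes that were called without overlap. The RUNX letters were in 15.7% of the higher and 9.15% of the lower genes, against 13% of 8560 genes tested. ETS letters were in 40.7% of the higher and 25.8% of the lower genes, against 28.5%. For SP1 the shares were 61% and 73.2%, against 64.8%, and for the E-box 16.9% and 12.5%, against 13.3%. These shares are descriptions and were not tested.

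Among genes called without overlap at the mean cut given above, a gene of V(D)J recombination had the largest rise. Dntt (chromosome 19, 41103765 to 41134013 of mm9) encodes terminal deoxynucleotidyl transferase, which adds untemplated bases at the joins of heavy chain segments in precursor B cells and is low in fetal life. It had 210.4, 4.76 and 82.1 normalized counts in IgMneg, against 0 and 0.633 in CKO IgMhi and 0, 0 and 0.882 in control IgMhi cells. In reads these were 217, 6 and 147 in IgMneg, against 0 and 1 in CKO IgMhi and 0, 0 and 2 in control IgMhi libraries. The IgMneg libraries spanned a wide range, with library 2 far below the others but still above every IgMhi value. The fitted rise was 5.21 on the log2 scale (standard error 1.11, adjusted p = 0.0128), and the ratio of summed reads was 176 (95% interval 59.8 to 859, counting error only). Dntt did not reach the filter when IgMneg library 1 or 3 was left out, and passed in the other 6 of these fits.

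Vpreb1 encodes part of the surrogate light chain, which pairs with the heavy chain in pre-B cells. It had 72.7, 3.97 and 25.1 normalized counts in IgMneg, against 0 and 0 in CKO IgMhi and 0, 0 and 1.76 in control IgMhi cells, a rise of 4.16 on the log2 scale (standard error 1.16, adjusted p = 0.0409). The call was lost without either CKO IgMhi library (adjusted p = 0.084 without 2 and 0.116 without 3) and without control library 1 (0.0511) or 3 (0.06). Its partner Igll1 had 61, 0 and 90 reads in IgMneg libraries against 0 in all 5 IgMhi libraries, at least 71.9-fold higher over the summed IgMneg libraries when the IgMhi group is set to 3 reads. Since IgMneg library 2 was also at 0, the groups overlapped and Igll1 did not pass (adjusted p = 0.118). Rag1, a subunit of the recombinase that cuts heavy and light chain loci, had 62, 2 and 47 reads in IgMneg, against 0 and 0 in CKO IgMhi and 0, 0 and 1 in control IgMhi libraries. Rag1 lay above all IgMhi values but did not pass (adjusted p = 0.0737, and 0.0472 with the mouse as a random and 0.0848 with the number as a fixed block). For all 4 genes IgMneg libraries 1 and 3 were high and library 2 was low. Libraries 1 and 3 alone brought these genes past the filter for testing, so the libraries where they were high also admitted them to the test. The libraries labelled CKO 3 had 147 Dntt reads in IgMneg and 1 in IgMhi. Of 15 genes tested in the V(D)J and surrogate light chain list, 2 (Dntt and Vpreb1) rose and 0 fell, against 2.36% higher and 4.9% lower over all genes tested. The median log2 fold change was 0.332 against 0.0121 over all genes. The number risen was 4 without IgMneg library 2, 1 without CKO IgMhi library 3 and 0 without IgMneg library 1 or 3.

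Single genes of the germinal centre and of class switching also rose. Gcsam, a germinal centre protein that acts in B-cell receptor signaling and cell motility, had 14.5, 17.5 and 36.3 normalized counts in IgMneg, against 4.53 and 1.9 in CKO IgMhi and 0 in all 3 control libraries. It rose by 3.46 on the log2 scale (standard error 0.92, adjusted p = 0.0338), the ratio of summed reads was 16.2 (95% interval 8.2 to 36.4, counting error only), and the call was lost without any 1 IgMneg or CKO IgMhi library (adjusted p up to 0.144). Only IgMneg libraries brought Gcsam past the filter for testing, so the group where it was high also admitted it to the test. Cd83, which stabilizes MHC class II and CD86 on activated B cells and dendritic cells, had 2342, 3121 and 2728 normalized counts in IgMneg, against 2096 and 1878 in CKO IgMhi and 1647, 1455 and 1522 in control IgMhi cells. It rose by 0.63 (standard error 0.12, adjusted p = 0.00805) and passed in all 8 fits that left out 1 library. Batf, an AP-1 family factor needed for class switching, had 239, 365 and 319.6 normalized counts in IgMneg, against 179.6 and 173 in CKO IgMhi and 202, 201 and 184 in control IgMhi cells (log2 fold change 0.70, standard error 0.16, adjusted p = 0.0175). Batf lost its call without IgMneg library 2 or 3 or CKO IgMhi library 3 (adjusted p up to 0.0863).

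Germinal centre and switching genes moved in small numbers. Of 27 germinal centre genes tested, 3 rose, among them Gcsam and Cd83, and 0 fell, with a median of 0.175. Gcsam is in this count although IgMneg libraries alone admitted it to the test. Of 24 class switching and hypermutation genes 2 rose, among them Batf, and 1 fell (Trp53bp1, a DNA repair factor), with a median of 0.011. The shares over all genes tested were 2.36% higher and 4.9% lower. The germinal centre number was 1 without IgMneg library 2 or 3 or CKO IgMhi library 3. Bcl6, the master regulator of the germinal centre, had 25.2, 23.8 and 19.6 normalized counts in IgMneg, against 44.5 and 31 in CKO IgMhi and 28.9, 33.5 and 45 in control IgMhi cells, below all IgMhi values without passing (adjusted p = 0.234). Fas, a death receptor of germinal centre B cells, had 15.5, 11.9 and 59.2 normalized counts in IgMneg, against 18.9 and 12 in CKO IgMhi and 22.2, 14.4 and 10.6 in control IgMhi cells (adjusted p = 0.563). The summed level of 9 germinal centre markers was 369.5 to 433.1 in IgMneg and 217.1 to 322.5 in IgMhi libraries.

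**Figure D1:**
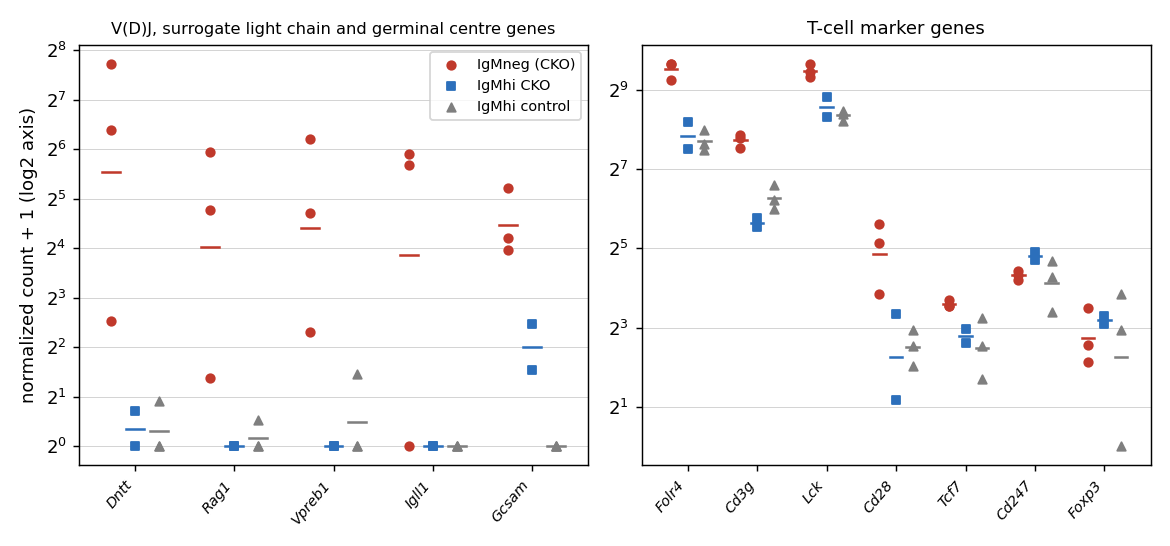
Normalized count plus 1 on a log2 axis for 5 genes of V(D)J recombination, surrogate light chain and germinal centre (left) and 7 T-cell markers (right), with a point per library and a bar at the group mean of the log2 values. IgMneg library 2 is the lowest IgMneg point for Dntt, Rag1, Vpreb1 and Igll1, while Folr4, Cd3g and Lck are high in all 3 IgMneg libraries and Foxp3 and Cd247 are not.

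Slpi, a secreted inhibitor of serine proteases, had the second largest of the 15 rises plotted, which are those of genes called without overlap at a mean of 50 or more normalized counts in the higher of the IgMneg and IgMhi groups. It had 371, 183 and 493 normalized counts in IgMneg, against 94.3 and 65.2 in CKO IgMhi and 71.1, 14.4 and 13.7 in control IgMhi cells (log2 fold change 2.85, standard error 0.44, adjusted p = 0.00239). The lowest IgMneg library was well above the highest IgMhi library, and the control libraries themselves differed widely. Gadd45g, a stress-inducible growth arrest gene, had 91.2, 156 and 121 normalized counts in IgMneg, against 64.9 and 59.5 in CKO IgMhi and 31.1, 23.9 and 41.5 in control IgMhi cells (log2 fold change 1.42, standard error 0.26, adjusted p = 0.00565). Ms4a6c, of the MS4A family of membrane proteins that includes CD20, had 512, 696 and 748 normalized counts in IgMneg, against 211 and 306 in CKO IgMhi and 445, 412 and 365 in control IgMhi cells (log2 fold change 1.00, standard error 0.16, adjusted p = 0.00316). For these genes the groups did not overlap, and each call held in all 8 fits that left out 1 library. Gpr176, an orphan receptor, had 112, 121 and 126 normalized counts in IgMneg, against 78.5 and 79.8 in CKO IgMhi and 40, 33.5 and 43.2 in control IgMhi cells (log2 fold change 1.10, adjusted p = 0.00777). The Gpr176 rise was 1.60 over control IgMhi (adjusted p = 0.00436) and 0.59 over CKO IgMhi cells alone (0.185). For Gadd45g these were 1.90 (0.0057) and 0.93 (0.0871), and for Slpi 3.67 (0.0014) and 2.03 (0.0311). Ms4a6c went the other way, with 0.66 (0.106) and 1.34 (0.0013).

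Among the rest of the 15 largest rises, Mcam (the adhesion molecule CD146) had 61.1, 102 and 123 normalized counts in IgMneg, against 41.5 and 43 in CKO IgMhi and 33.3, 33.5 and 32.6 in control IgMhi cells. Its log2 fold change of 1.27 (adjusted p = 0.013) was lost without IgMneg library 2 or 3 or CKO IgMhi library 3 (adjusted p up to 0.0652). Cenpv, a centromere protein, rose by 0.98 (adjusted p = 0.0101, and 0.0525 without IgMneg library 3). Lzts2, a regulator of beta-catenin export, rose by 1.19 (adjusted p = 0.023), Impa2, an inositol monophosphatase, by 1.18 (adjusted p = 0.0374), and Chn2, a GTPase-activating protein for Rac, by 1.44 (adjusted p = 0.0434). Each of these 3 calls was lost on leaving out any of 5 of the 8 libraries, with adjusted p of at most 0.0955 for Lzts2, 0.169 for Impa2 and 0.148 for Chn2. Myo1f, an unconventional myosin of leukocytes, had 49.5, 58 and 370.5 normalized counts in IgMneg, against 45.3 and 34.8 in CKO IgMhi and 22.2, 14.4 and 23.8 in control IgMhi cells. The rise of Myo1f rested on IgMneg library 3 (adjusted p = 0.0371, and 0.155 without that library). In IgMneg library 3 the 3 erythroid and platelet markers in the table also summed to 412.4, against 11.12 to 20.37 in the other IgMneg libraries and 4.788 to 34.85 in IgMhi libraries, and the 2 neutrophil markers to 57.56, against 0 to 22.16 in IgMhi libraries. Their part in the result was not tested.

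**Figure D2:**
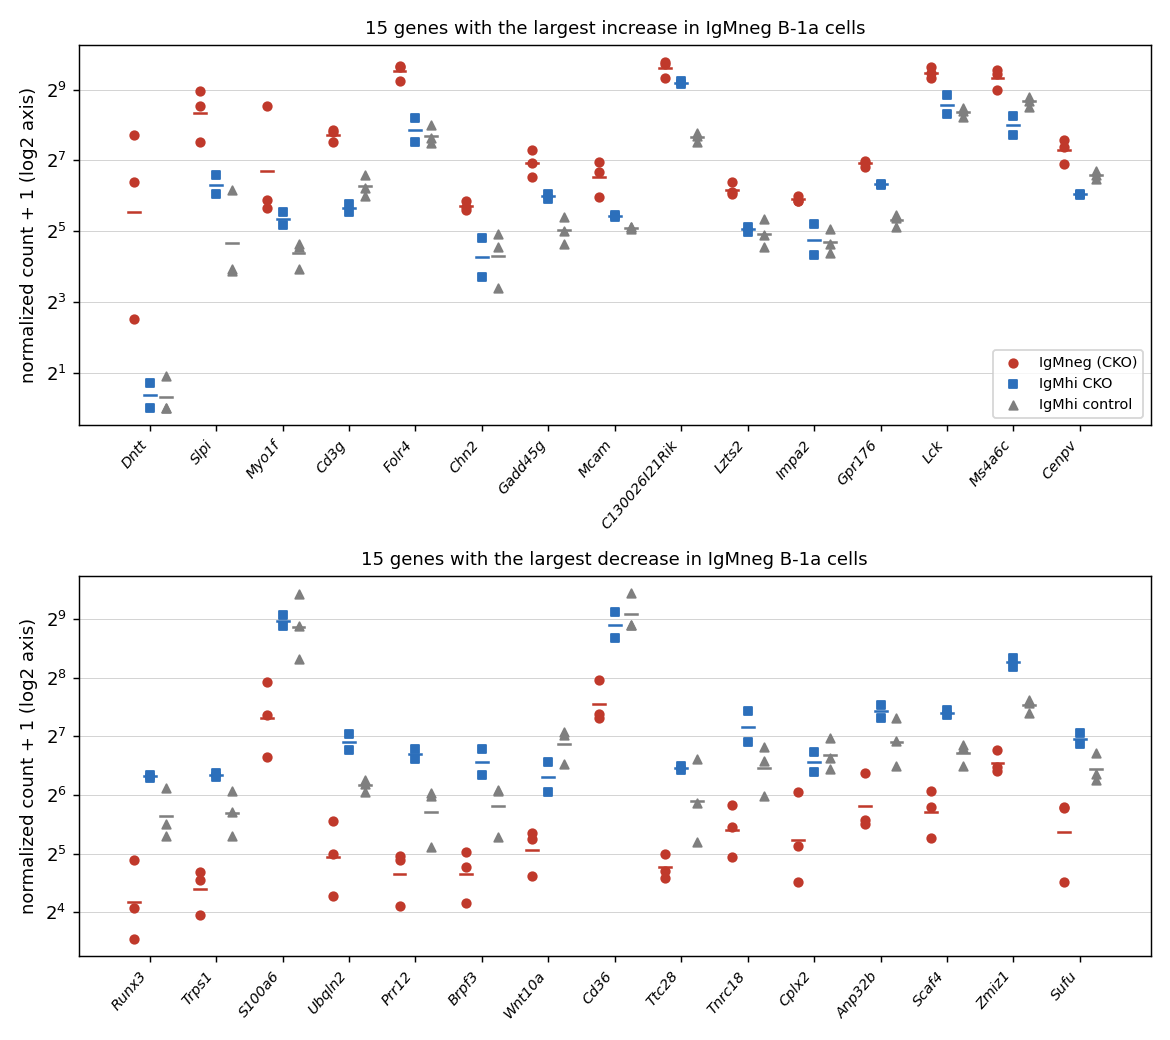
Normalized count plus 1 on a log2 axis for the 15 genes with the largest rise (top) and the 15 with the largest fall (bottom) among those called, free of overlap and with a mean of 50 or more normalized counts in the higher of the IgMneg and IgMhi groups, with a point per library and a bar at the group mean. Dntt spans the widest range among IgMneg libraries, and for Myo1f a single IgMneg library stands far above the other points.

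Genes used as T-cell markers were prominent among the rises. Folr4, a folate receptor family protein known from regulatory T cells, had 610.0, 809.9 and 802 normalized counts in IgMneg, against 181 and 289.9 in CKO IgMhi and 178, 254 and 196 in control IgMhi cells, and the smallest adjusted p of the genes named here (log2 fold change 1.75, standard error 0.18, adjusted p = 0.00024). Cd3g, a chain of the CD3 complex, had 184, 221 and 230.2 normalized counts in IgMneg, against 45.3 and 53.2 in CKO IgMhi and 73.4, 95.8 and 63.1 in control IgMhi cells (log2 fold change 1.77, standard error 0.20, adjusted p = 0.000531). Lck, the proximal kinase of the T-cell receptor that B-1a cells are also known to express, had 707, 642 and 801 normalized counts in IgMneg, against 318 and 456 in CKO IgMhi and 333, 297 and 356 in control IgMhi cells (log2 fold change 1.01, standard error 0.14, adjusted p = 0.00186). For these 3 genes every IgMneg library was above every IgMhi library, and each passed in all 8 fits that left out 1 library. Cd28, a costimulatory receptor of T cells that long-lived plasma cells also carry, had 33.9, 13.5 and 48.1 normalized counts in IgMneg, against 9.06 and 1.27 in CKO IgMhi and 6.67, 4.79 and 3.09 in control IgMhi cells (adjusted p = 0.0377, and up to 0.155 with 1 library left out, lost without IgMneg library 1 or 3, CKO IgMhi library 3 or control library 3). Only IgMneg libraries brought Cd28 past the filter, so the group where it was high also admitted it to the test.

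Not all T-cell markers rose. Cd247, the zeta chain of the T-cell receptor, had 20.4, 17.5 and 19 normalized counts in IgMneg, against 24.9 and 29.1 in CKO IgMhi and 24.5, 9.58 and 18.5 in control IgMhi cells. Foxp3, which defines regulatory T cells, had 4.85, 10.3 and 3.35 normalized counts in IgMneg, against 7.55 and 8.86 in CKO IgMhi and 13.3, 0 and 6.62 in control IgMhi cells. Tcf7, a T-cell transcription factor, had 10.7, 11.9 and 10.6 normalized counts in IgMneg, against 6.79 and 5.06 in CKO IgMhi and 2.22, 4.79 and 8.38 in control IgMhi cells. None of these 3 passed. Of the 20 markers listed for T cells 7 are in the table, of which 4 rose, against 2.36% of all genes tested. Among these 4, Cd28 was admitted to the test by IgMneg libraries alone. The other 13 of the 20 listed markers were not analysed here. The 7 summed to 1571 to 1914 in IgMneg and 593.1 to 843.2 in IgMhi libraries, although the gate took CD3-negative cells, and their part in the rises above was not tested.

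The sorted phenotype was checked at the RNA level. The log2 fold change of Ptprc, the pan-leukocyte phosphatase CD45, was 0.06 (adjusted p = 0.812). Cd5 had 209, 246 and 155 normalized counts in IgMneg, against 178 and 151 in CKO IgMhi and 136, 129 and 138 in control IgMhi cells (adjusted p = 0.143). Spn, which encodes CD43, had 2570.1, 1309 and 1875 normalized counts in IgMneg, against 958 and 1103 in CKO IgMhi and 1420.5, 1116 and 1067 in control IgMhi cells. The groups overlapped for Spn, and its rise of 0.74 (adjusted p = 0.0212) was lost without IgMneg library 1 or 3 or either CKO IgMhi library (adjusted p up to 0.0754). Ctla4 had 48.5, 73.8 and 33 normalized counts in IgMneg, against 36.2 and 28.5 in CKO IgMhi and 42.2, 43.1 and 76.8 in control IgMhi cells (adjusted p = 0.659), and as reads over the whole gene include parts outside the floxed stretch this does not check the deletion. The log2 fold changes of Cd38 and Slamf1, both surface receptors of B cells, were 0.12 (adjusted p = 0.558) and 0.17 (adjusted p = 0.741). The 10 B-cell markers summed to 38160 to 40700 in IgMneg and 35310 to 42530 in IgMhi libraries, and the 8 B-1a markers to 4810 to 5913 and 4955 to 5489.

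Of 28 genes of B-1a identity tested, 2 rose (Spn and Apoe) and 4 fell, with a median of -0.0673. Among all genes tested 2.36% were called higher and 4.9% lower. With the mouse as a random or the number as a fixed block 4 of the 28 rose. Bhlhe41, a transcription factor needed for B-1a cells, had 424, 475 and 570.0 normalized counts in IgMneg, against 755 and 858 in CKO IgMhi and 642, 814 and 595 in control IgMhi cells (log2 fold change -0.60, adjusted p = 0.0195, lost without IgMneg library 1 or 2 or CKO IgMhi library 3, with adjusted p up to 0.0927). Tbc1d9, a Rab GTPase-activating domain protein, fell by 0.78 (adjusted p = 0.00565) with no overlap, and this held in all 8 fits that left out 1 library. Apoe, the lipid carrier apolipoprotein E, had 10669, 12103 and 12126 normalized counts in IgMneg, against 5604 and 6814 in CKO IgMhi and 8937, 8392 and 8403 in control IgMhi cells (log2 fold change 0.67, adjusted p = 0.012, and 0.0501 without IgMneg library 3 and 0.0563 without CKO IgMhi library 2).

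Of 21 marginal zone and follicular genes tested, 7 fell (Cr2, S1pr3, Cd55, Notch2, Cd22, Zbtb20 and Cd36) and 1 rose (Ccr7), against 4.9% lower and 2.36% higher over all genes tested. Their median was -0.282, against 0.0121 over all genes. Cr2 had 411, 335 and 429.7 normalized counts in IgMneg, against 846 and 661 in CKO IgMhi and 838, 819 and 1319.9 in control IgMhi cells (log2 fold change -1.12, standard error 0.16, adjusted p = 0.00186). Cd36, a scavenger receptor for oxidized lipids that marginal zone B cells carry, had 158, 165 and 247 normalized counts in IgMneg, against 555 and 408 in CKO IgMhi and 476, 694 and 475 in control IgMhi cells (log2 fold change -1.44, standard error 0.18, adjusted p = 0.000693). For both, the highest IgMneg library was well below the lowest IgMhi library, and both passed in all 8 fits that left out 1 library. S1pr3, a receptor for sphingosine 1-phosphate that helps hold cells in the marginal zone, fell by 0.77 (adjusted p = 0.00794). Notch2, the receptor that directs B cells to a marginal zone fate, had 1749.6, 1361 and 1315 normalized counts in IgMneg, against 2314 and 3188 in CKO IgMhi and 1949.6, 1877 and 2161 in control IgMhi cells (adjusted p = 0.0107, and 0.0579 without IgMneg library 3 and 0.0684 without CKO IgMhi library 3). Ccr7, a chemokine receptor that draws cells to T-cell zones, had 723, 856 and 674 normalized counts in IgMneg, against 592 and 473 in CKO IgMhi and 545, 479 and 584 in control IgMhi cells (adjusted p = 0.0376). The Ccr7 call was lost without any 1 library other than CKO IgMhi library 2 (adjusted p up to 0.168). The number of fallen genes in the list was 3 without CKO IgMhi library 3, 2 with scaling by total reads and 5 after removal of a trend on the length and GC content of exons.

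Of 5 RUNX and ETO genes tested, 3 fell and 0 rose, with a median of -0.709, against 4.9% lower and 2.36% higher over all genes tested. Runx3 (chromosome 4, 134676567 to 134733905 of mm9) encodes a DNA-binding factor that acts in CD8 T cells and in switching to IgA, and its distal promoter window is printed above. It had 10.7, 15.9 and 28.5 normalized counts in IgMneg, against 80 and 77.2 in CKO IgMhi and 44.5, 38.3 and 68.4 in control IgMhi cells (log2 fold change -1.81, standard error 0.34, adjusted p = 0.00672). The groups did not overlap and the call held in all 8 fits that left out 1 library. Runx1, its paralog needed for B-cell development, had 135, 116 and 135 normalized counts in IgMneg, against 236 and 230.4 in CKO IgMhi and 160.1, 225 and 188 in control IgMhi cells (log2 fold change -0.71, adjusted p = 0.0189). Runx1 lost its call without IgMneg library 2 or either CKO IgMhi library (adjusted p up to 0.0752). Cbfa2t3, an ETO family corepressor, fell by 1.18 (adjusted p = 0.00777) with overlap. It had 65.9, 124 and 61.5 normalized counts in IgMneg, against 313 and 278 in CKO IgMhi and 88.9, 129 and 118 in control IgMhi cells. Its log2 fold change was -1.88 over CKO IgMhi cells alone (adjusted p = 0.00141) and -0.47 over control IgMhi cells alone (adjusted p = 0.385).

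None of 40 B-lineage transcription factors rose and 12 fell, with 14 lying below all IgMhi values and a median of -0.32. For all genes tested 2.36% rose, 4.9% fell and 6.96% lay below all IgMhi values. Bcl11a, needed for early lymphoid development, had 197, 245 and 199.5 normalized counts in IgMneg, against 517 and 491 in CKO IgMhi and 293, 339.9 and 408 in control IgMhi cells (log2 fold change -0.97, standard error 0.15, adjusted p = 0.00239). Nfatc1, a calcium-regulated factor on which B-1a cells depend, had 995, 1456 and 1330.0 normalized counts in IgMneg, against 2389 and 2491 in CKO IgMhi and 1683, 1805 and 2082 in control IgMhi cells (log2 fold change -0.77, adjusted p = 0.00455). Zbtb7a, a repressor that also acts in lineage choice, had 241, 224 and 205 normalized counts in IgMneg, against 398 and 551 in CKO IgMhi and 320.1, 297 and 357 in control IgMhi cells (log2 fold change -0.80, adjusted p = 0.00547). These 3 passed in all 8 fits that left out 1 library, and for each the IgMneg libraries lay below both IgMhi groups. Pax5 and Ebf1, which hold B-cell identity, fell by less. Pax5 had 598, 557 and 567 normalized counts in IgMneg, against 868 and 828 in CKO IgMhi and 800.3, 646 and 915 in control IgMhi cells (log2 fold change -0.50, adjusted p = 0.0295). The log2 fold change of Ebf1 was -0.48 (adjusted p = 0.0298), that of Ikzf1 -0.50 (adjusted p = 0.0162) and that of Ikzf3 -0.54 (adjusted p = 0.0104). Pax5 was lost without any 1 library other than IgMneg library 1 or control library 2 (adjusted p up to 0.0927), Ebf1 without IgMneg library 2 or 3, either CKO IgMhi library or control library 3 (up to 0.109), Ikzf1 without IgMneg library 2 or 3 or CKO IgMhi library 3 (up to 0.0775), and Ikzf3 without CKO IgMhi library 3 (0.0589). Foxo1, which activates the recombinase genes, had 229.8, 255 and 233 normalized counts in IgMneg, against 580.3 and 552 in CKO IgMhi but 216, 225 and 368 in control IgMhi cells, so that its call (adjusted p = 0.0248) came with overlap and was lost without any 1 of the 5 CKO libraries (up to 0.0813). The number of factors called lower was 5 without CKO IgMhi library 3, 6 without IgMneg library 2 or 3, and 6 after removal of the length and GC trend, where the median was -0.163.

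**Figure D3:**
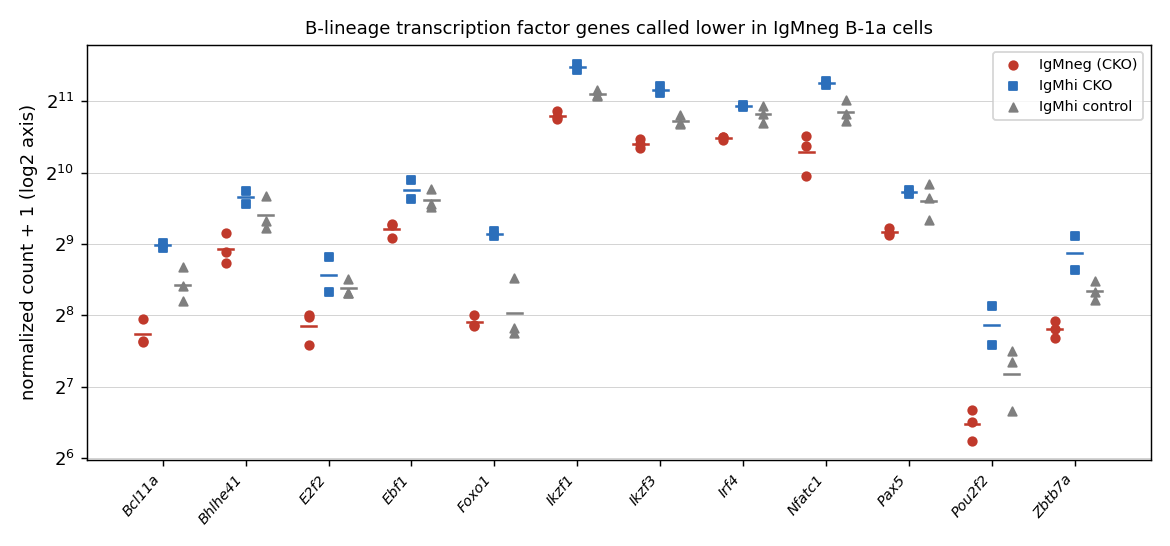
Normalized count plus 1 on a log2 axis for the 12 B-lineage transcription factor genes called lower in IgMneg cells, with a point per library and a bar at the group mean. CKO IgMhi libraries are the highest of the 3 groups for most of the genes, and for Foxo1 the IgMneg and control libraries overlap.

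Other large falls were in genes of diverse function. S100a6, a calcium-binding protein, had 98.9, 164 and 241 normalized counts in IgMneg, against 468 and 536 in CKO IgMhi and 685, 469 and 317 in control IgMhi cells (log2 fold change -1.61, standard error 0.25, adjusted p = 0.00269). Trps1, a GATA-type repressor, had 14.5, 24.6 and 22.4 normalized counts in IgMneg, against 81.5 and 78.5 in CKO IgMhi and 51.1, 38.3 and 66.2 in control IgMhi cells (log2 fold change -1.62, standard error 0.30, adjusted p = 0.0058). Wnt10a, a secreted WNT ligand, had 36.9, 39.7 and 23.5 normalized counts in IgMneg, against 93.6 and 65.2 in CKO IgMhi and 133, 91 and 129.7 in control IgMhi cells (log2 fold change -1.52, standard error 0.26, adjusted p = 0.00405). All of them lay below every IgMhi library. Zmiz1, a coactivator known to work with NOTCH1, had 84.4, 107 and 88.3 normalized counts in IgMneg, against 289 and 323 in CKO IgMhi and 196, 168 and 189.7 in control IgMhi cells (log2 fold change -1.34, standard error 0.16, adjusted p = 0.000531), and it is 1 of the 3 lower genes still called without the variance trend. Calls of S100a6, Trps1, Wnt10a and Zmiz1 held in all 8 fits that left out 1 library. So did those of Ubqln2, a ubiquitin-binding chaperone (log2 fold change -1.59), Tnrc18 (-1.41), Anp32b, a histone chaperone (-1.35), and Scaf4, which binds the tail of RNA polymerase II (-1.35). Of the rest, Prr12 (-1.55), Brpf3, a histone acetyltransferase subunit (-1.54), and Sufu, an inhibitor of hedgehog signaling (-1.34), were lost without CKO IgMhi library 3 (adjusted p up to 0.0671). Cplx2, a complexin of vesicle fusion (-1.39), was lost without that library or IgMneg library 3 (adjusted p up to 0.0715). Ttc28 (-1.41) was lost without IgMneg library 2 or either CKO IgMhi library (adjusted p up to 0.0676).

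B-cell receptor signaling genes fell in the larger part of those called. Of 39 proximal signaling genes tested, 12 fell and 1 rose, with a median of -0.302, against 4.9% lower and 2.36% higher over all genes tested. Cd79a, the Ig-alpha chain that carries the receptor's signal, had 1587, 1544 and 2132 normalized counts in IgMneg, against 3031 and 3127 in CKO IgMhi and 2812, 2552 and 2922 in control IgMhi cells (log2 fold change -0.75, standard error 0.13, adjusted p = 0.00425). Cblb, a ubiquitin ligase that damps the receptor, had 237, 247 and 292 normalized counts in IgMneg, against 468 and 516 in CKO IgMhi and 305, 364 and 388 in control IgMhi cells (log2 fold change -0.69, adjusted p = 0.00936, and 0.0565 without CKO IgMhi library 3). Grb2, an adaptor, had 226, 308 and 338 normalized counts in IgMneg, against 691 and 757 in CKO IgMhi and 342, 383 and 352 in control IgMhi cells. Its fall of 0.83 (adjusted p = 0.00425) was mostly against CKO IgMhi cells, since the difference from control cells alone was -0.32 (adjusted p = 0.35). Vav3, an exchange factor for small GTPases, had 399.6, 294 and 319 normalized counts in IgMneg, against 185 and 243 in CKO IgMhi and 207, 182 and 236 in control IgMhi cells (log2 fold change 0.67, adjusted p = 0.0221). The number fallen in the list was 5 without CKO IgMhi library 3, and 8 fell and 2 rose after removal of the length and GC trend.

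Inhibitory coreceptors and phosphatases moved in both directions, with 1 of 21 higher and 5 lower (Cd22, Fcgr2b, Pirb, Ptpn22 and Ceacam1) and a median of -0.00324. All genes tested had 2.36% higher and 4.9% lower. Fcgr2b, the inhibitory IgG Fc receptor, had 145, 145 and 144 normalized counts in IgMneg, against 343 and 289 in CKO IgMhi and 249, 187 and 317 in control IgMhi cells (log2 fold change -0.93, standard error 0.17, adjusted p = 0.0057). Cd72, an inhibitory lectin of B cells, went the other way with 2114, 2163 and 2479 normalized counts in IgMneg, against 1134 and 1241 in CKO IgMhi and 1163, 1556 and 1603 in control IgMhi cells (log2 fold change 0.79, standard error 0.13, adjusted p = 0.00377). Both calls held in all 8 fits that left out 1 library and neither gene overlapped. Ptpn22, a phosphatase of antigen receptor signaling, fell by 0.44 (adjusted p = 0.0377, and up to 0.139 with 1 library left out, passing without IgMneg library 2 and without control library 2), and Ceacam1, an adhesion receptor with an inhibitory tail, fell by 0.78 (adjusted p = 0.0231, passing only without IgMneg library 1 or control library 1 or 2, with adjusted p up to 0.0869).

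Immediate early genes are induced within minutes of receptor signaling. Of 28 tested, 4 fell (Egr1, Egr3, Myc and Zfp36l1) and 1 rose (Cd83), with a median of -0.219, against 4.9% lower and 2.36% higher over all genes tested. Egr1 had 59.2, 58 and 59.2 normalized counts in IgMneg, against 144 and 125 in CKO IgMhi and 169, 115 and 114 in control IgMhi cells (log2 fold change -1.16, standard error 0.20, adjusted p = 0.00425), and held in all 8 fits that left out 1 library. Zfp36l1, which speeds decay of AU-rich mRNA, fell by 0.68 (adjusted p = 0.00698) with 372, 511 and 424 normalized counts in IgMneg, against 815 and 698 in CKO IgMhi and 629, 642 and 643 in control IgMhi cells. Egr3 fell by 0.64 (adjusted p = 0.0329, and up to 0.12 with 1 library left out, lost without IgMneg library 2 or 3, either CKO IgMhi library or control library 3).

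Genes of antibody secretion were lower where they were called, apart from Cd28, which IgMneg libraries alone admitted to the test. Of 26 tested, 3 fell (Prdm1, Irf4 and Txndc5) and 1 rose, with a median of -0.267, against 4.9% lower and 2.36% higher over all genes tested. In the fits with the mouse as a random or the number as a fixed block 6 fell. Prdm1, which encodes the plasma cell regulator BLIMP-1, had 109, 135 and 111 normalized counts in IgMneg, against 211 and 199 in CKO IgMhi and 200.1, 249 and 199.8 in control IgMhi cells (log2 fold change -0.83, standard error 0.16, adjusted p = 0.00777), and passed in all 8 fits that left out 1 library. Irf4 fell by 0.39 (adjusted p = 0.0472) and passed in only 1 of those fits, without control library 2 (adjusted p up to 0.141). Igj, the chain that joins IgM pentamers, had 4243, 3100.0 and 6647 normalized counts in IgMneg, against 9940.5 and 6631 in CKO IgMhi and 22008, 18173 and 4898 in control IgMhi cells (adjusted p = 0.059, 0.00301 without control library 3, 0.0334 with the mouse as a random and 0.0196 with the number as a fixed block). The 8 plasma cell markers summed to 4887 to 9166 in IgMneg and 6891 to 26360 in IgMhi libraries, the highest in control libraries 1 and 2, and their part in the falls was not tested.

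Chromatin activators held the largest number of falls of any list. Of 63 tested, 32 fell and 0 rose, with a median of -0.476 and 22 lying below all IgMhi values. Shares over all genes tested were 4.9% lower, 2.36% higher and 6.96% below all IgMhi values. Arid1a, a subunit of the SWI/SNF remodeler, had 306, 429.6 and 383 normalized counts in IgMneg, against 1104 and 1076 in CKO IgMhi and 538, 632 and 699.6 in control IgMhi cells (log2 fold change -1.15, standard error 0.14, adjusted p = 0.000531). Kmt2d, a histone H3 lysine 4 methyltransferase, had 436, 669 and 728 normalized counts in IgMneg, against 1466 and 2073 in CKO IgMhi and 756, 747 and 1004 in control IgMhi cells (log2 fold change -1.01, adjusted p = 0.00414). In both the CKO IgMhi libraries were highest, and the control libraries were nearer to the IgMneg libraries. Crebbp, a histone acetyltransferase, and Smarca2, a remodeler ATPase, each fell by 0.83 (adjusted p = 0.004 and 0.00318). The number of fallen activators was 15 without CKO IgMhi library 3, 17 without IgMneg library 3 and 21 without IgMneg library 2. After removal of the length and GC trend 8 fell and 2 rose, with a median of -0.194. Of 49 repressive chromatin genes 5 fell and 0 rose (median -0.168), including the corepressor Ncor1 (-0.60, adjusted p = 0.00788). After removal of the length and GC trend 0 of the 49 fell, with a median of 0.000528. Large ubiquitin ligases fell for 5 of 15 genes (median -0.426), among them Huwe1 (-0.59, adjusted p = 0.0226) and Ubr4 (-0.68, adjusted p = 0.0195), but none of them passed without CKO IgMhi library 3, without IgMneg library 2 or after removal of the length and GC trend. With the mouse as a random block 8 of them fell, and with the number as a fixed block 9.

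Exon length went with the direction of change over all genes. Among 10434 genes with an exon length, the Spearman correlation between exon length and log2 fold change was -0.347, as a description across genes of the same libraries, and that with GC content was -0.0479. In the shortest of 4 equal bins (54 to 2348 bases) 4.52% of genes were called higher and 0.767% lower. In the longest (5621 to 116828 bases) 0.69% were called higher and 12.2% lower. The median exon length was 2531.5 bases for the higher and 6628 bases for the lower genes called without overlap, and 3719 for all. Chromatin activators and large ubiquitin ligases had median exon lengths of 8135.5 and 9889 bases. After the trend on length and GC content was removed, 265 genes were called higher and 261 lower (50.4% and 49.6%), of which 364 were also called with it left in. Whether the length trend arose in the cells or in library preparation was not tested.

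**Figure D4:**
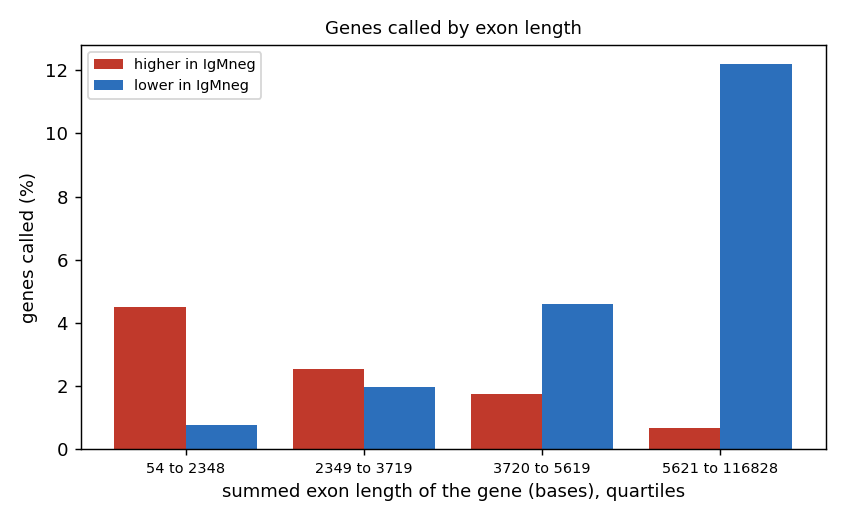
Percent of genes called higher or lower in IgMneg cells (bars from 0) in 4 equal bins of summed exon length in bases. The share called lower goes up from 0.767% to 12.2% across the bins while the share called higher goes down from 4.52% to 0.69%.

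Proteasome genes rose most often of the lists, with 9 of 39 called higher, 0 lower and a median of 0.355, against 2.36% higher and 4.9% lower over all genes tested. The proteasome degrades ubiquitinated proteins and supplies peptides to MHC class I. Psma4, a core subunit, had 1143, 1564 and 1449.6 normalized counts in IgMneg, against 786 and 746 in CKO IgMhi and 905, 1044 and 793 in control IgMhi cells (log2 fold change 0.72, standard error 0.13, adjusted p = 0.0058). Psmd10, an assembly chaperone, had 209, 267 and 251 normalized counts in IgMneg, against 135 and 137 in CKO IgMhi and 138, 158 and 131 in control IgMhi cells (log2 fold change 0.79, standard error 0.16, adjusted p = 0.00889). Those 2 calls held in all 8 fits that left out 1 library. Of immunoproteasome genes, which were counted with MHC class I loading, Psmb10 rose by 0.58 (adjusted p = 0.0248), Psmb8 by 0.43 (adjusted p = 0.043) and the activator subunit Psme2 by 0.53 (adjusted p = 0.0263), each without overlap and each lost on leaving out at least 3 of the libraries 1 at a time. The number risen was 2 without CKO IgMhi library 3 or IgMneg library 2, 3 without IgMneg library 3, and 6 after removal of the length and GC trend. With the mouse as a random block it was 15, and with the number as a fixed block 17. Scaling by total reads left 1 proteasome gene called higher, or 3 when the ribosomal RNA precursor Rn45s was kept out of the totals. Without the variance trend 0 were called.

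In MHC class I loading 3 of 18 genes rose and 1 fell (median 0.143). In MHC class II presentation and costimulation 1 of 27 rose (Cd83) and 1 fell (Icosl), with a median of 0.187 and 6 lying above all IgMhi values. Of all genes tested 2.36% rose, 4.9% fell and 7.11% lay above all IgMhi values. H2-Aa, the MHC class II alpha chain, had 6928, 6721 and 8671 normalized counts in IgMneg, against 5149 and 5053 in CKO IgMhi and 5704, 5644 and 5765 in control IgMhi cells, and missed the threshold (log2 fold change 0.45, adjusted p = 0.0509, 0.0248 with the mouse as a random and 0.0207 with the number as a fixed block). H2-Ab1, the beta chain, had 4673, 5642 and 6204 normalized counts in IgMneg, against 4185 and 3844 in CKO IgMhi and 4277, 4318 and 4344 in control IgMhi cells (log2 fold change 0.39, adjusted p = 0.0764, and 0.0359 and 0.0267 with those blocks). Both were above all IgMhi libraries. H2-Eb2, a second class II beta chain gene outside the list, had 164, 182 and 131 normalized counts in IgMneg, against 111 and 99.4 in CKO IgMhi and 53.4, 91 and 81.2 in control IgMhi cells. It rose by 0.84 on the log2 scale (adjusted p = 0.029) without overlap, and the call was lost without IgMneg library 1 or 2 or either CKO IgMhi library (adjusted p up to 0.115). The number risen in the class II list was 4 without IgMneg library 1, 4 and 6 with the mouse as a random or fixed block, and 5 by DESeq2 or voom on recovered reads. Icosl, the ligand of ICOS on T cells, had 84.4, 80.2 and 98.9 normalized counts in IgMneg, against 137 and 127 in CKO IgMhi and 147, 129 and 195 in control IgMhi cells (adjusted p = 0.037, lost without any 1 IgMneg or CKO IgMhi library or control library 3, with adjusted p up to 0.111). In clathrin and receptor endocytosis, by which surface IgM can be taken up, 1 of 36 genes rose (Clta, a clathrin light chain) and 3 fell (Ap2a1, Cbl and Cblb), with a median of -0.194. Of the 8 fits that left out 1 library, Clta passed in 2, Ap2a1 in 0, Cbl in 5 and Cblb in 7.

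Ribosomal and respiratory genes leaned upward without passing in most cases. Of 76 cytosolic ribosomal protein genes, 2 rose and 0 fell (median 0.314), and 68 had a positive log2 fold change. The 2 called are near the share of 2.36% higher over all genes tested, where 4.9% were lower. Of 76 mitochondrial ribosomal protein genes, 0 rose and 1 fell (median 0.281), and of 76 respiratory chain genes 4 rose and 0 fell (median 0.254). Sdhb, the iron-sulfur subunit of complex II, had 833, 789 and 946 normalized counts in IgMneg, against 523 and 544 in CKO IgMhi and 638, 694 and 611 in control IgMhi cells (log2 fold change 0.54, adjusted p = 0.0152, lost without IgMneg library 3 or either CKO IgMhi library, with adjusted p up to 0.0665). Without IgMneg library 1 the numbers risen were 25 for cytosolic ribosomal, 10 for mitochondrial ribosomal and 18 for respiratory genes, and without CKO IgMhi library 3 they were 0 in each. With the mouse as a random or the number as a fixed block they were 12 and 26 for cytosolic ribosomal, 7 and 9 for mitochondrial ribosomal and 12 and 12 for respiratory genes. The median of cytosolic ribosomal genes was 0.0529 after quantile normalization, and after removal of the length and GC trend the medians were 0.17 for cytosolic ribosomal, 0.144 for mitochondrial ribosomal and 0.0835 for respiratory genes, against 0.0343 over all genes.

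Of 47 interferon response genes, 3 rose (Irf1, Gbp6 and Psmb8) and 0 fell, with 0 to 3 risen in the fits that left out 1 library. In DNA replication and mitosis, 1 of 60 rose (Smc4, a condensin subunit) and 1 fell. MS4A and other tetraspan genes had 2 of 17 higher and 1 lower, homing and chemotaxis receptors 1 of 27 higher and 2 lower, and cytokine and TNF family receptors 1 of 36 higher and 1 lower. Beside these stand 2.36% higher and 4.9% lower over all genes tested. Counts for replication, homing and cytokine receptor genes lie near those shares and are not read as results about the lists. With the mouse as a random or the number as a fixed block, 4 and 5 interferon response genes rose and 2 and 2 fell, and 4 and 4 cytokine and TNF family receptors fell.

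**Figure D5:**
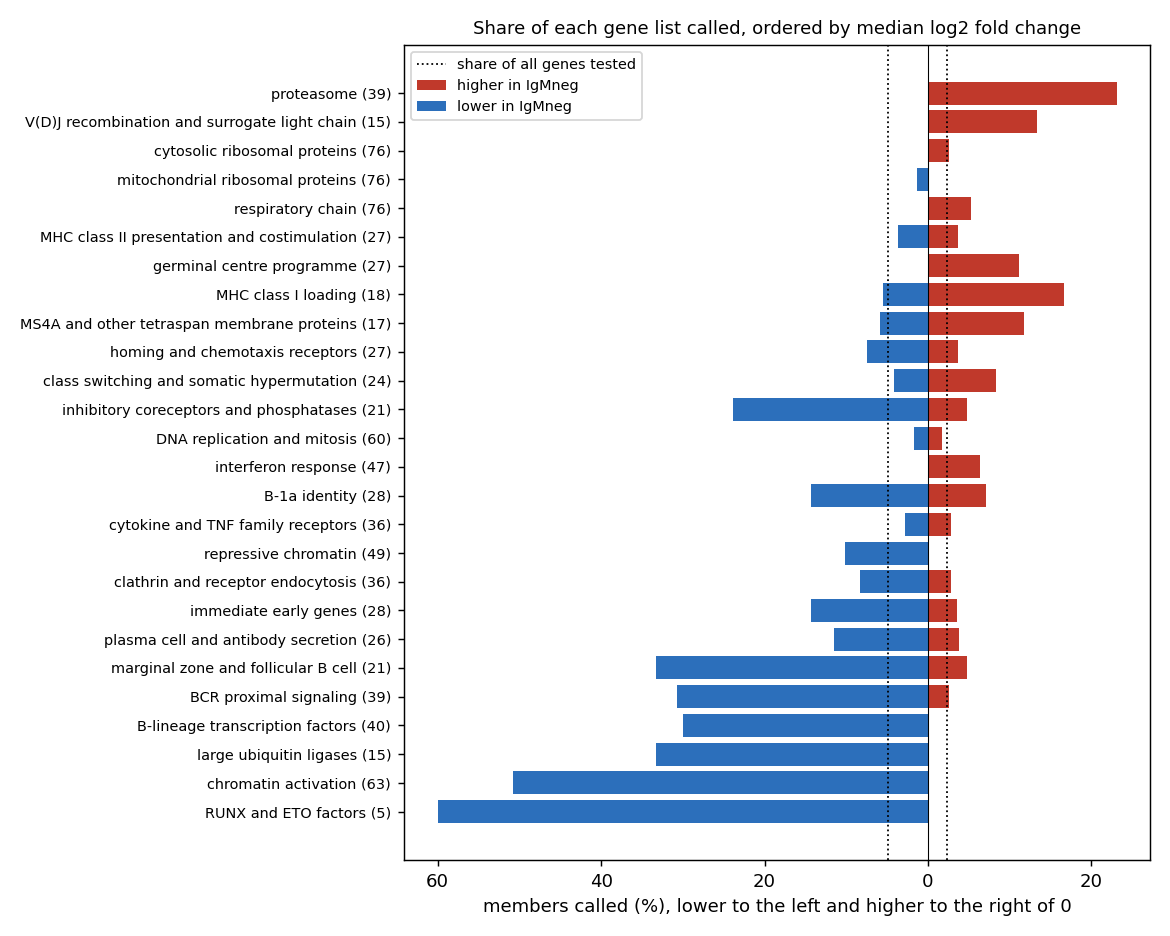
Percent of the tested members of 26 gene lists called lower (left of 0) or higher (right of 0) in IgMneg cells, with lists ordered by median log2 fold change and the number tested in brackets. Dotted lines mark 2.36% higher and 4.9% lower over all genes tested, and the bars for chromatin activation (32 of 63 lower) and proteasome (9 of 39 higher) lie on opposite sides.

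The 2 IgMhi groups behind the comparison were set side by side. The test of IgMneg against CKO IgMhi cells alone called 800 genes and that against control IgMhi cells alone called 32. These tests share the IgMneg libraries. Among genes called without overlap, the CKO IgMhi mean lay farther from the IgMneg mean than the control mean did for 163 of 220 higher and 327 of 373 lower genes, and nearer for the other 57 and 46. These genes were picked from the same libraries, and the order over all genes tested is not given. The counts therefore describe these genes only. CKO and control IgMhi cells differed for 19 genes by the same test, of which 6 (C130026I21Rik, Dnah8, Fmnl1, Grb2, Msn and Rin3) were among the 593 called without overlap. C130026I21Rik, on chromosome 1, had 643, 854 and 881 normalized counts in IgMneg, against 566 and 607 in CKO IgMhi and 220.1, 206 and 181 in control IgMhi cells. Its rise of 1.19 (adjusted p = 0.000531) was mainly relative to control cells, with log2 fold changes of 1.95 over control IgMhi (adjusted p = 4.82e-06) and 0.42 over CKO IgMhi cells (adjusted p = 0.145). Fmnl1, a formin of leukocytes, and Msn, which encodes moesin and links membrane to actin, were the reverse. Msn had 1035, 1212 and 1067 normalized counts in IgMneg, against 2480.4 and 3061 in CKO IgMhi and 1260.5, 1642 and 1442 in control IgMhi cells, with log2 fold changes of -1.32 over CKO IgMhi (adjusted p = 0.000397) and -0.39 over control IgMhi cells (adjusted p = 0.22). Folr4, Cd36 and Cr2 differed from each IgMhi group on its own. Folr4 had log2 fold changes of 1.68 over CKO IgMhi (adjusted p = 0.000683) and 1.82 over control IgMhi cells (adjusted p = 0.000116). For Cd36 they were -1.35 (adjusted p = 0.00252) and -1.53 (adjusted p = 0.0014), and for Cr2 -0.94 (adjusted p = 0.0112) and -1.31 (adjusted p = 0.00239).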

How the data were processed

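RNA of sorted splenic B-1a cells was depleted of ribosomal RNA and sequenced by the authors, who aligned reads to mm9 with TopHat2 2.0.13, counted them per gene with HTSeq 0.6.0 and normalized the counts with DESeq2 in R 3.3.1. As deposited, values are signal, that is reads per gene over a factor for each library. In 100% of values the division could be undone to within 0.01 of a whole read, so whole reads were recovered. On those reads edgeR called 377 genes higher and 614 lower. Strandedness is not given in the sources used here, so reads of a gene and an antisense partner cannot be told apart. The table holds 10783 genes with at least 61 reads in all, of which 10576 (98.08%) matched GENCODE vM1, and 17 names had turned into dates. 0 columns were left unmapped. Replicates differed by more than counting error. Nothing states that each library is 1 animal, so p-values measure the spread between these libraries. Intervals on read ratios cover counting error only.

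In R 4.3.3, limma 3.58.1 with a variance trend was fitted over 3 groups to log2(normalized count + 1). Tested were 10627 genes that reached 10 normalized counts in 2 or more libraries. Some low genes, such as Dntt, Vpreb1, Rag1, Igll1, Gcsam and Cd28, reached that level only in IgMneg libraries. The contrast was IgMneg minus the mean of both IgMhi group means, two-sided, with Benjamini-Hochberg adjustment over all genes tested. Fold changes on this scale understate those of low genes. The pipeline was tested on simulated data.

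Numbers 2 and 3 in the CKO labels were taken to name the same mouse in both sorts, which the labels do not state. Deviations of these pairs correlated at 0.257 and 0.197, and those of the crossed pairs at -0.257 and -0.197. The crossed values mirror the others by construction, because the CKO IgMhi group holds only libraries 2 and 3. Alternatives were other scalings, pseudocounts and filters, limma settings, edgeR 4.0.16, DESeq2 1.42.0 and voom on recovered reads, a random block by mouse, a fixed block by library number, length and GC correction, thinning, sex genes and each library left out. Genes named are the 15 largest changes per direction among those called without overlap at a mean of at least 50 in the higher of the IgMneg and IgMhi groups, up to 4 such genes per list (or, where fewer than 2 pass, the 2 of highest mean level), genes of the deletion, sort and surface phenotype, and the 2 most abundant markers per other cell type. Rag1, Igll1, Bcl6, Cbfa2t3, Pax5, Ebf1, Ikzf1, Foxo1, Kmt2d, H2-Aa, H2-Ab1, H2-Eb2, Igj, Cd247, Foxp3, Tcf7, Fmnl1, Msn, genes named only in a count of list members, and the genes of the closing observations, were picked with their values in view. The members and lists were chosen with earlier results of these data known. Some results are not reported here.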

Additional observations from a re-analysis of the deposited data

Results flagged for a closer look

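In 11 of 149 sets of 5 IgMhi values tested, a single library stood far from the other 4, where chance alone would give about 1 in 20. For 4 of them (Rag1, Vpreb1, S100a8 and S100a9) the other IgMhi libraries were at 0, so that any read sets a library apart, which leaves 7 of 149. Control library 3 stood high for Cr2 at 1319.9 normalized counts, against 660.86 to 845.92 in the other IgMhi libraries, and for Icosl at 195.42, against 127.23 to 146.72. It also had the only IgMhi reads of Rag1 and Vpreb1, at 0.44113 and 1.7645 normalized counts, against 0 in the others. Control library 2, the shallowest, stood high for Prdm1 at 248.95 (198.76 to 210.54 in the others), Psmd10 at 157.99 (130.57 to 137.83) and Rplp0, a ribosomal stalk protein, at 26542 (21211 to 21838). CKO IgMhi library 3 stood high for the ubiquitin ligases Ubr4 at 2528.9 (1220.8 to 1538.2) and Zzef1 at 1087.5 (828.57 to 876.12), and had the only IgMhi reads of the neutrophil genes S100a8 at 10.128 and S100a9 at 12.027.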

How the results depend on the processing

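Of all single-gene results rerun under 30 other settings, 2913 kept their direction and side of the threshold, 553 kept the direction but no longer passed, 11 newly passed and 0 changed sign. The counts of calls moved by more than 1.5 times as follows, with 251 higher and 521 lower called and 756 above and 740 below without overlap. Scaling by total reads called 24 higher and 142 lower, with 370 below. The same scaling without the ribosomal RNA precursor Rn45s, chosen after the data were seen, called 85 higher and left 416 above, with 10.4% of calls higher and 89.6% lower, and moved the median of all genes to -0.0936. Without the variance trend 2 and 3 were called. On recovered reads edgeR called 377 higher, DESeq2 505 higher, and voom 523 higher and 851 lower. A fit of 2 groups called 65 and 134. Removal of the length and GC trend called 261 lower. Thinning to the shallowest library called 164 higher. A log2 fold change of at least 1 left 22 and 90 called, and 52 above and 122 below. With the CKO mouse as a random replicate block 510 higher and 812 lower were called, and with the number as a fixed block 551 and 810. Among the 117 genes of the naming rule the block changed the calls of Mrpl24 (adjusted p = 0.0459 and 0.0224) and Pcna (0.0346 and 0.0231) only. It also added calls to several lists and to some genes outside that rule, as given beside them. Leaving out 1 library gave 43 to 305 higher, 148 to 540 lower, 831 to 1409 above and 817 to 1259 below, where fewer libraries make freedom from overlap easier to reach. Without control libraries 1 and 2, chosen after the data were seen, 90 and 267 were called and 1651 and 1632 did not overlap. For the other shifts the cause was not tested. With 31 reads for the median gene in control library 2, differences in low genes rest on few reads.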

Other observations

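Outside the lists, several further genes rose without overlap. They were chosen after their values were seen and are given as values. Lpxn, which encodes the adhesion adaptor leupaxin, had 1073, 1319 and 1142 normalized counts in IgMneg, against 683 and 617 in CKO IgMhi and 638, 742 and 619 in control IgMhi cells (log2 fold change 0.84, adjusted p = 0.00195 by limma). Lrmp, a membrane protein of the endoplasmic reticulum in lymphocytes, had 2324, 2265 and 2293 normalized counts in IgMneg, against 1295 and 1365 in CKO IgMhi and 1452, 1494 and 1588 in control IgMhi cells (log2 fold change 0.69, adjusted p = 0.00285). Both passed in all 8 fits that left out 1 library. Itga6, an integrin subunit for laminin, had 398, 309 and 254 normalized counts in IgMneg, against 168 and 200.0 in CKO IgMhi and 216, 163 and 162 in control IgMhi cells (log2 fold change 0.80, adjusted p = 0.0141, and 0.0548 without IgMneg library 1 and 0.0527 without CKO IgMhi library 2). Plau, the urokinase plasminogen activator, rose by 0.97 (adjusted p = 0.0177) and was lost without IgMneg library 2 or 3 or either CKO IgMhi library (adjusted p up to 0.0765). Gimap4, a GTPase of lymphocyte survival, rose by 0.66 (adjusted p = 0.0104, and 0.0582 without CKO IgMhi library 3).

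Tlr9, the endosomal receptor for unmethylated CpG DNA, had 138, 156 and 196 normalized counts in IgMneg, against 378 and 475 in CKO IgMhi and 278, 211 and 257 in control IgMhi cells. It was lower by limma with an adjusted p of 0.00354, with a log2 fold change of -1.39 against CKO IgMhi cells alone and -0.61 against control IgMhi cells alone (adjusted p = 0.135). Klhl14, a ubiquitin ligase adaptor of B cells, had 118, 124 and 90.0 normalized counts in IgMneg, against 259.6 and 209.5 in CKO IgMhi and 216, 244 and 230.3 in control IgMhi cells (log2 fold change -1.07, adjusted p = 0.00269). Adam19, a metalloprotease, fell by 1.02 (adjusted p = 0.00269), and Ptprj, the phosphatase CD148 that acts on Src family kinases, by 0.73 (adjusted p = 0.00674). These 4 passed in all 8 fits that left out 1 library. Vim, the intermediate filament vimentin, fell by 0.67 (adjusted p = 0.013, and 0.0557 without IgMneg library 2 and 0.051 without CKO IgMhi library 2).

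Among low genes with wide gaps, Ccr4, a chemokine receptor of T cells, had 13.6, 16.7 and 22.9 normalized counts in IgMneg, against 5.28 and 0 in CKO IgMhi and 0, 4.79 and 0 in control IgMhi cells without passing (adjusted p = 0.072, 0.0401 with the mouse as a random and 0.049 with the number as a fixed block). Pdcd1, the inhibitory receptor PD-1, had 71.8, 51.6 and 64.3 normalized counts in IgMneg, against 12.8 and 30.4 in CKO IgMhi and 22.2, 0 and 21.6 in control IgMhi cells (adjusted p = 0.0853, and 0.0462 and 0.0352 with those blocks). Il2ra, the interleukin-2 receptor alpha chain CD25, had 7.76, 2.38 and 6.15 normalized counts in IgMneg, against 18.9 and 22.8 in CKO IgMhi and 20, 14.4 and 20.3 in control IgMhi cells (adjusted p = 0.0535, and 0.0253 and 0.0388 with those blocks).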
